A study of Homo sapiens with 8 samples.

Results

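The 10 genes described here encode proteins that write, erase or read N1-methyladenosine (m1A) in RNA, other than the TRMT6/61A complex that was overexpressed. They were chosen by name, as the rows of the deposited count table for 3 mitochondrial writers (TRMT61B, TRMT10C and HSD17B10), 3 erasers (ALKBH1, ALKBH3 and FTO) and 4 readers (YTHDF1, YTHDF2, YTHDF3 and YTHDC1). All 10 were found among the 58302 gene identifiers of the table. RNA sequencing was carried out on DLD1, an established line of human colon cancer cells, in 2 groups of 2 libraries. OE-WT cells carried lentiviral TRMT6 and TRMT61A, and CTRL cells, given as wild type for genotype, carried the empty vector, so that both groups had been transduced. The series' design calls the cultures of each group duplicates, and whether they came from separate transductions is not given in the sources used here, so the p-values measure only the spread between these cultures. Cells were washed with cycloheximide, and the poly(A)-selected RNA came from cleared lysate, which leaves out what was spun down. The comparison asked whether the RNA of the other m1A proteins differed when the cytosolic writer was in excess.

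Methylation at N1 puts a methyl group and a positive charge on the face of adenine that pairs with uracil. In the T loop of cytosolic tRNA it is made by TRMT61A, the catalytic subunit, together with TRMT6, which binds the tRNA, and it stabilises the tRNA fold. Mitochondria have writers of their own: TRMT61B, and TRMT10C with its partner HSD17B10. Enzymes of the AlkB family remove the methyl group by oxidation, and YTH domain proteins, known first as readers of N6-methyladenosine (m6A), have also been reported to bind m1A.

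Depth ranged from 10327498 to 12379671 counts per library, and 14133 genes passed the filter on low counts. At this depth, 3 counts, the most that a count of 0 allows, corresponded to between 0.233 and 0.302 CPM (counts relative to library size, with TMM scaling between libraries), a limit that covers counting error only. All 10 genes passed the filter, with between 55 and 1176 counts in a library. Over all tested genes, edgeR's quasi-likelihood test gave an adjusted p below 0.05 (Benjamini-Hochberg) for 2976 genes, which is 21.1%; of these, 1334 (9.44%) were higher and 1642 (11.6%) lower in OE-WT. The epithelial markers summed to between 10849 and 12441 CPM in every library, although CDX1 had at most 1 count, and 8 markers of leukocytes, fibroblasts and endothelium summed to between 4.72 and 7.07 CPM. CD3E and COL1A2 had no count and PTPRC at most 1. Among these 8, the endothelial gene VWF was at 5 and 6 counts for OE-WT against 30 and 14 for CTRL.

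TRMT6 and TRMT61A were both higher in each OE-WT library, as the labels state. The level of TRMT6 was 211 and 181 CPM in the OE-WT libraries and 52.6 and 55.4 CPM in the CTRL libraries. It rose by 1.86 on the log2 scale (SE 0.08, edgeR adjusted p = 8.5e-13). TRMT61A stood at 138 and 130.4 CPM in OE-WT and at 58.9 and 56.8 CPM in CTRL (log2 fold change 1.21, SE 0.07, adjusted p = 1.9e-10). Gene counts do not separate the RNA of the construct from that of the cells' own gene.

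Against this rise, the 10 genes differed little. TRMT10C was the 1 gene of the 10 that passed the test, and it was higher in OE-WT; the share of all tested genes called in either direction was 21.1%, so that 1 of 10 is no more than the background. None passed the thresholds used in the study, an unadjusted p below 0.05 with an absolute log2 fold change above 1, which 3.15% of all tested genes did. The log2 fold change was above 0 for 7 genes and below 0 for 3, beside 7229 above and 6904 below among all tested genes. The median was 0.10 beside 0.010 over all tested genes. With a trend on exon GC content removed, as described below, these medians were 0.047 and 0.0098. In 5 of the 10 the OE-WT and CTRL libraries did not overlap, 3 with OE-WT above and 2 below. Among all tested genes 60.2% had groups that did not overlap, 29.9% with OE-WT above and 30.2% below. An unadjusted p below 0.05 was found for 4 of the 10 genes and for 33.8% of all tested genes. The 95% interval lay between -1 and 1 on the log2 scale for 9 of the 10 and between -0.5 and 0.5 for 6. In bulk libraries such as these, a change in the number of cells that express a gene and a change in RNA per cell cannot be told apart.

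**Figure D1:**
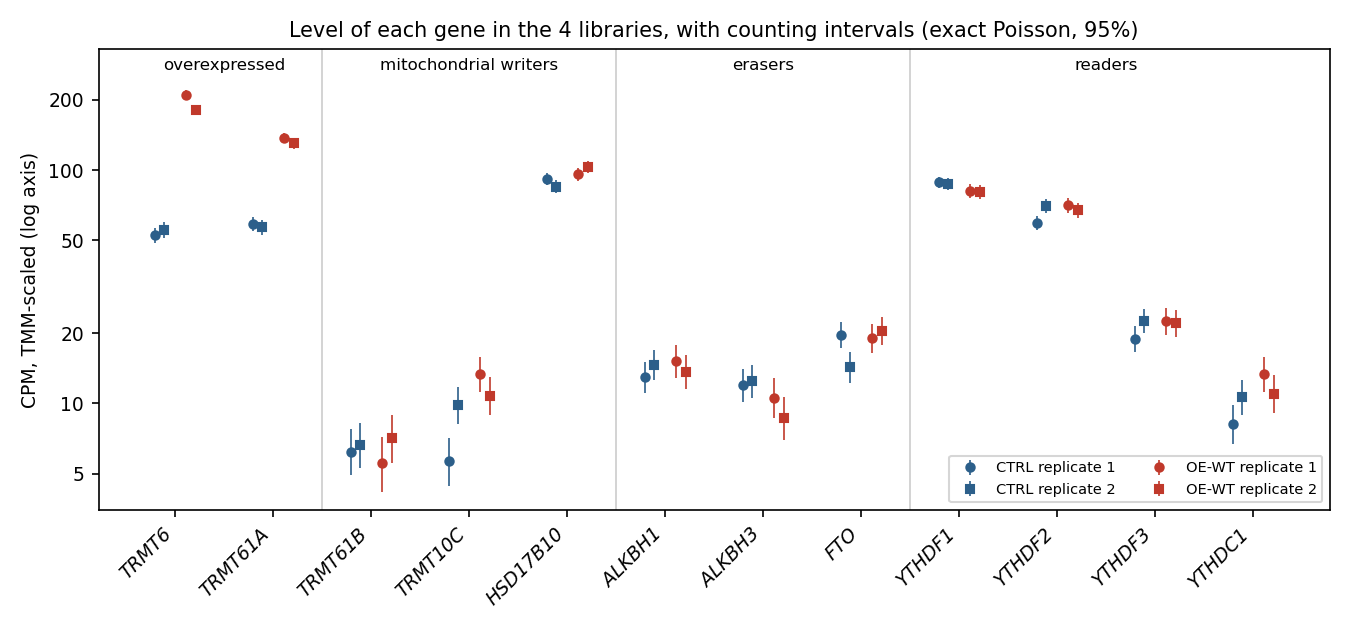
Level of TRMT6, TRMT61A and the 10 genes in each of the 4 libraries, in TMM-scaled CPM on a log axis. Circles are replicate 1 and squares replicate 2 of CTRL (blue) and OE-WT (red), and bars are 95% exact Poisson intervals, which cover counting error only. The overexpressed pair stands clear of CTRL, while the red and blue points of the 10 genes lie close together; the bars of the CTRL libraries of TRMT10C, at 5.67 and 9.82 CPM, do not meet.

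The stretch of DNA before the transcription start is shown for 3 of the genes, TRMT10C because it was the gene that rose, and ALKBH1 and ALKBH3 because they were the other members with the same ETS core, CCGGAAG on either strand, in this window. RefSeq promoters on GRCh38.p14 were at hand for 9 of the 10 genes. Each line gives the 250 bases upstream of the RefSeq start, 5′ to 3′ on the strand of the gene, with the ETS core in capitals. They lie at chr3:101561618-101561867 on the plus strand for TRMT10C, at chr14:77708024-77708273 on the minus strand for ALKBH1 and at chr11:43880581-43880830 on the plus strand for ALKBH3. The window of ALKBH3 runs past the gene start of 43880811 given below, which is from GENCODE.
TRMT10C: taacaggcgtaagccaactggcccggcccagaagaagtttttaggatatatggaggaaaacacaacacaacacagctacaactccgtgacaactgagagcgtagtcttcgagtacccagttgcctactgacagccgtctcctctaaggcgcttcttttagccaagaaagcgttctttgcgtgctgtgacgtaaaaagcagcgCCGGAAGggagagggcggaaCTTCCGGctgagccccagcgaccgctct
ALKBH1: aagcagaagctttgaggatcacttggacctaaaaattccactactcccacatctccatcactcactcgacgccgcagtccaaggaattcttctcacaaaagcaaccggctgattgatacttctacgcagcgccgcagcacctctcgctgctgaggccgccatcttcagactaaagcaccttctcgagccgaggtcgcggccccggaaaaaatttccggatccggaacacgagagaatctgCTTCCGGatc
ALKBH3: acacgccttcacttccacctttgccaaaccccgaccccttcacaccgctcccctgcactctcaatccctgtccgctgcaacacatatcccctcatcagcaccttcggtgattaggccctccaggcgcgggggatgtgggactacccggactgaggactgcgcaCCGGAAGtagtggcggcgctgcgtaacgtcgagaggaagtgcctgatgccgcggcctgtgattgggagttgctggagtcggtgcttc
The promoter of TRMT10C held 2 copies of the core, one on each strand, and those of ALKBH1 and ALKBH3 held 1 each. The core was found in 8.52% of the 35116 promoters of the same length. The CCAAT box, searched as CCAAT on both strands and present in 32.0% of all promoters, occurred in those of ALKBH3, HSD17B10 and YTHDF2, in YTHDF2 at only one of its listed starts. The core of the NRF1 site, present in 5.07%, occurred in that of YTHDF1. The 3 genes sharing the ETS core had log2 fold changes of 0.65 (TRMT10C), -0.34 (ALKBH3) and 0.07 (ALKBH1), of which that of TRMT10C passed the test.

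Of the mitochondrial writers, TRMT10C (ENSG00000174173, GRCh38 chromosome 3, 101561868 to 101566446, plus strand) is the methyltransferase that modifies the position next to the acceptor stem of mitochondrial tRNAs and is also a subunit of mitochondrial RNase P. Its level was 13.4 and 10.8 CPM in the OE-WT libraries and 5.67 and 9.82 CPM in the CTRL libraries. Both OE-WT libraries were above both CTRL libraries, but CTRL replicate 2 came close to OE-WT replicate 2, and CTRL replicate 1 was the library that stood low. The rise was 0.65 on the log2 scale (SE 0.20, edgeR adjusted p = 0.0252), or 1.57-fold with a 95% interval of 1.17 to 2.09. The means were 12.1 ± 1.83 and 7.75 ± 2.93 CPM (SD, n = 2 each).

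The call on TRMT10C rested on single libraries. Its log2 fold change was 0.30 without CTRL replicate 1 (adjusted p = 0.372) and 0.49 without OE-WT replicate 1 (adjusted p = 0.0895). The value was 1.09 without CTRL replicate 2. The counting intervals of the CTRL libraries, 4.45 to 7.13 and 8.15 to 11.7 CPM, did not meet, so that these replicates differed by more than counting error. DESeq2 gave a log2 fold change of 0.64 with an adjusted p of 0.117, and edgeR gave an adjusted p of 0.0803 when every gene with at least 1 count was kept.

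HSD17B10 (ENSG00000072506, chromosome X, 53431258 to 53434370, minus strand) is a dehydrogenase of isoleucine breakdown that also serves as the partner of TRMT10C in mitochondrial tRNA methylation and RNase P. It was measured at 95.9 and 103 CPM in OE-WT and at 91.4 and 85.1 CPM in CTRL. The groups did not overlap, and they lay close beside each other. The log2 fold change of 0.17 (SE 0.07, 95% interval 0.03 to 0.32) had an unadjusted p of 0.0242 and did not pass after adjustment (adjusted p = 0.0903).

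TRMT61B (ENSG00000171103, chromosome 2, 28849821 to 28870309, minus strand), the mitochondrial relative of TRMT61A, methylates the T loop of mitochondrial tRNAs and a site in the large mitochondrial ribosomal RNA. Its level of 5.54 and 7.08 CPM in OE-WT and 6.22 and 6.66 CPM in CTRL came from 55 to 82 counts in a library, the fewest of the 10 genes except in CTRL replicate 1, where TRMT10C had 73 and TRMT61B 80. The OE-WT values lay on either side of the CTRL values. The log2 fold change was -0.027 (SE 0.19, adjusted p = 0.940), and the interval reached from -0.43 to 0.38, within which a change was not detectable at this depth.

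**Figure D2:**
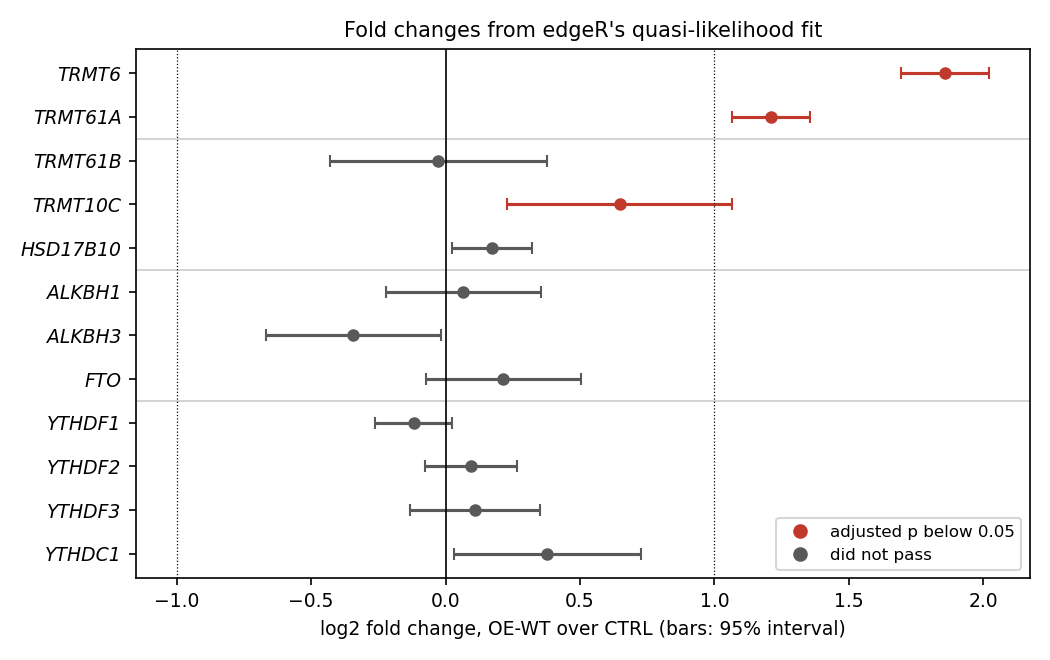
Log2 fold change of OE-WT over CTRL for TRMT6, TRMT61A and the 10 genes, with 95% intervals from edgeR's quasi-likelihood fit; red marks an adjusted p below 0.05 and dotted lines mark -1 and 1. TRMT6 and TRMT61A lie at 1.86 and 1.21, TRMT10C at 0.65 with an upper bound just past 1, and the intervals of the other 9 genes lie between the dotted lines.

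Among the erasers, ALKBH3 (ENSG00000166199, chromosome 11, 43880811 to 43920274, plus strand) had the largest difference. It repairs alkylated bases in single-stranded DNA and removes m1A from RNA, including tRNA. Its level was 10.6 and 8.65 CPM in OE-WT and 12.0 and 12.4 CPM in CTRL. Both OE-WT libraries were below both CTRL libraries, and the CTRL libraries were nearly alike. The log2 fold change of -0.34 (SE 0.16, 95% interval -0.67 to -0.02) did not pass the test (unadjusted p = 0.0392, adjusted p = 0.126). With scaling by library size alone it was -0.44 and passed, at an adjusted p of 0.0383. The median over all tested genes was -0.082 with that scaling, and 17.3% of them were called lower. Leaving out OE-WT replicate 2 gave -0.21 (adjusted p = 0.471) and leaving out OE-WT replicate 1 gave -0.49, neither of which passed.

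ALKBH1 (ENSG00000100601, chromosome 14, 77672404 to 77708023, minus strand), a dioxygenase that demethylates m1A in tRNA and acts on mitochondrial tRNA as well, was measured at 15.2 and 13.7 CPM in OE-WT and at 13.0 and 14.6 CPM in CTRL. The groups overlapped, and the log2 fold change was 0.07 (SE 0.14, 95% interval -0.22 to 0.35, adjusted p = 0.783). FTO (ENSG00000140718, chromosome 16, 53701692 to 54158512, plus strand), best known as an m6A demethylase and also reported to act on m1A in tRNA, stood at 19.0 and 20.4 CPM in OE-WT and at 19.7 and 14.3 CPM in CTRL. CTRL replicate 2 stood apart, below the other 3 libraries. The log2 fold change was 0.22 (SE 0.14, adjusted p = 0.293). It was 0.47 and passed when CTRL replicate 1 was left out (adjusted p = 0.0384), and 0.0072 when CTRL replicate 2 was left out.

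The readers YTHDF1, YTHDF2 and YTHDF3 are cytoplasmic proteins with like YTH domains, known for acting on the translation and decay of methylated mRNA. YTHDF1 (ENSG00000149658, chromosome 20, 63195429 to 63216139, minus strand) gave 81.5 and 80.8 CPM in OE-WT and 88.6 and 87.5 CPM in CTRL. Replicates were nearly alike in both groups, and the groups did not overlap, OE-WT being the lower. The difference was small, at -0.12 on the log2 scale (SE 0.07, 95% interval -0.26 to 0.03), and did not pass the test (adjusted p = 0.241).

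YTHDF2 (ENSG00000198492, chromosome 1, 28736621 to 28769775, plus strand), which brings a deadenylase complex to its target mRNAs, stood at 70.9 and 67.3 CPM in OE-WT and at 59.5 and 70.2 CPM in CTRL. YTHDF3 (ENSG00000185728, chromosome 8, 63168553 to 63212786, plus strand) stood at 22.6 and 22.1 CPM in OE-WT and at 18.9 and 22.6 CPM in CTRL. In both, CTRL replicate 2 lay with the OE-WT libraries and CTRL replicate 1 lay below, so that the groups overlapped. Their log2 fold changes were 0.09 (SE 0.08, adjusted p = 0.461) and 0.11 (SE 0.12, adjusted p = 0.549).

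YTHDC1 (ENSG00000083896, chromosome 4, 68310387 to 68350090, minus strand) is the nuclear reader, known for its part in splicing and export. It was measured at 13.4 and 11.0 CPM in OE-WT and at 8.16 and 10.6 CPM in CTRL. As with TRMT10C, the groups did not overlap, CTRL replicate 1 was the lowest library, and CTRL replicate 2 came close to OE-WT replicate 2. Its log2 fold change, 0.38 (SE 0.17, 95% interval 0.03 to 0.73), had an unadjusted p of 0.0348 and an adjusted p of 0.116. It was 0.50 and passed without OE-WT replicate 2 (adjusted p = 0.0374), 0.58 and passed without CTRL replicate 2 (adjusted p = 0.0316), and 0.20 without CTRL replicate 1.

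The spread between replicates was uneven. For TRMT10C, FTO and YTHDF2 the counting intervals of the CTRL libraries did not meet, whereas for all 10 genes those of the OE-WT libraries did. TRMT10C, ALKBH1, YTHDF2, YTHDF3 and YTHDC1 were lowest in CTRL replicate 1, HSD17B10 and FTO in CTRL replicate 2, ALKBH3 and YTHDF1 in OE-WT replicate 2, and TRMT61B in OE-WT replicate 1. With 2 libraries in each group, 0.333 is the smallest two-sided p of an exact permutation test, so the tests above rest on the spread that edgeR shares across genes.

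Exon GC content moved with the fold change over the whole table. The median log2 fold change was 0.13 in the lowest of 5 equal groups of genes ordered by GC content, then 0.10, 0.021 and -0.058, and -0.15 in the highest. TRMT10C, YTHDF3 and YTHDC1, with 39.9, 40.1 and 39.5% GC, belonged to the lowest group. TRMT61B, ALKBH1 and FTO fell in the next, HSD17B10, ALKBH3, YTHDF1 and YTHDF2 in the middle one, and none of the 10 in the other 2. With this trend removed in each library, TRMT10C had a log2 fold change of 0.53 and still passed (adjusted p = 0.0365), HSD17B10 passed at 0.20 (adjusted p = 0.0438), and YTHDC1 was at 0.26, ALKBH1 at -0.014 and YTHDF3 at -0.0060.

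**Figure D3:**
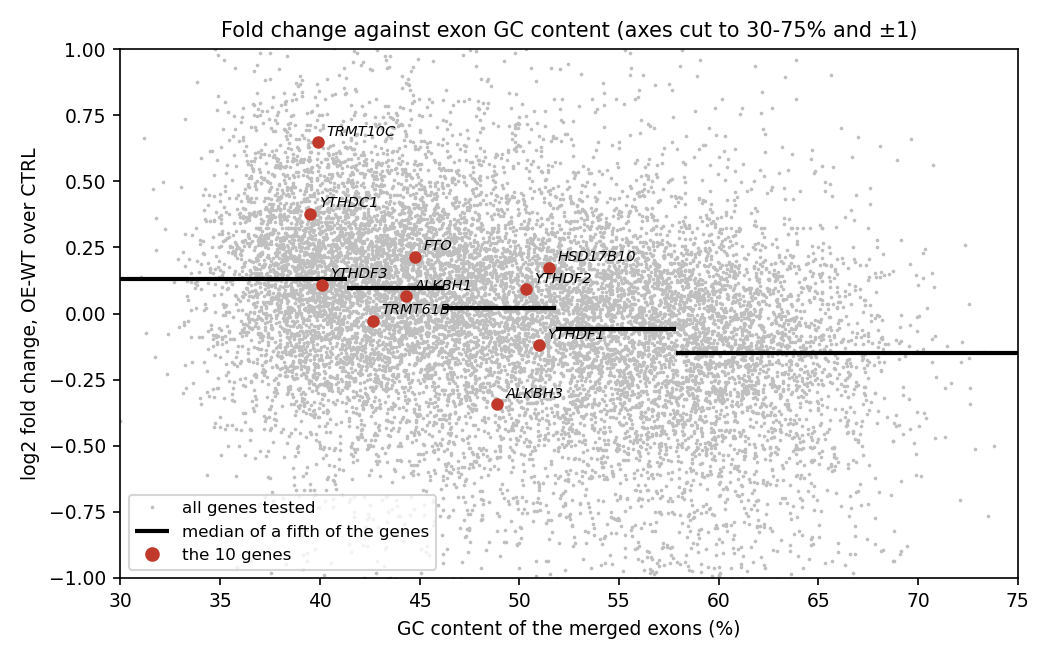
Log2 fold change of OE-WT over CTRL against the GC content of the merged exons in percent, for all tested genes (grey) and the 10 genes (red); black bars are the medians of 5 groups of equal size ordered by GC content. The medians step down from 0.13 to -0.15, and TRMT10C, at 39.9% GC, lies well above its group's median.

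Levels were then compared between genes per length of annotated exon, as TPM (a length-scaled share of the library). TPM has no TMM scaling between libraries, so it orders genes within a library and is not a comparison of the groups. For YTHDF1 the ratio of OE-WT to CTRL means was 0.80 in TPM, beside 0.92 in the TMM-scaled fit. In all 4 libraries HSD17B10 was the highest of the 10 genes, at 57.0 and 66.7 TPM in OE-WT and 67.1 and 59.0 TPM in CTRL. YTHDF1 came next, at 42.6 and 45.9 TPM in OE-WT and 57.3 and 53.4 TPM in CTRL, followed by YTHDF2 at 31.9 to 36.9 TPM over the 4 libraries. ALKBH1, ALKBH3, TRMT10C and YTHDF3 formed a middle group between 6.14 and 11.9 TPM whose order was not the same in all 4 libraries; the range of each overlapped that of its neighbours. TRMT61B stood at 4.50 to 6.31 TPM, which overlapped with YTHDF3, YTHDC1 at 2.40 to 3.19 TPM and FTO, whose merged exons are the longest by far at 21379 bases, at 1.31 to 1.91 TPM. With the length of the longest transcript in place of merged exons, FTO and YTHDC1 changed places at the foot of the order in OE-WT replicate 2 and CTRL replicate 1, ALKBH3 was above ALKBH1 in all 4 libraries, and in the CTRL libraries TRMT10C took rank 8 and rank 6 of the 10. The same changes were found with the length of the MANE Select transcript, an alternative chosen after the data were seen, with which YTHDF2 was also above YTHDF1 in OE-WT replicate 1. With that length HSD17B10 stood at 132 and 151 TPM in OE-WT and at 145 and 131 TPM in CTRL, still the highest of the 10 genes.

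Ratios of RNA within a library, which no scaling between libraries touches, were taken next. Those of TRMT6 and TRMT61A to other genes were bound to rise, since both were overexpressed and counts do not separate construct RNA. TPM of TRMT6 over the summed TPM of ALKBH1, ALKBH3 and FTO was 5.22 and 5.09 in OE-WT against 1.32 and 1.33 in CTRL, and TRMT61A over the same sum was 4.00 and 4.32 against 1.74 and 1.60. TPM of TRMT61A over that of its mitochondrial relative TRMT61B was 15.9 and 11.8 in OE-WT and 6.08 and 5.48 in CTRL. Of the genes in these ratios, TRMT6 and TRMT61A passed the test and the erasers and TRMT61B did not. The ratios therefore largely restate the overexpression and cannot show whether the erasers or TRMT61B also shifted. In CPM, ALKBH3 was lower in both OE-WT libraries than in both CTRL libraries, while ALKBH1 and FTO overlapped between groups. The 95% interval of TRMT61B reached from -0.43 to 0.38 on the log2 scale.

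The ratio of HSD17B10 to its partner TRMT10C was 4.77 and 6.37 in OE-WT and 10.7 and 5.78 in CTRL. The groups overlapped, CTRL replicate 1 being the library that stood apart. This ratio depended strongly on the length used, since HSD17B10 has 2822 bases of merged exons but 954 in its MANE Select transcript. With MANE Select the ratio was 13.6 and 18.1 in OE-WT and 30.6 and 16.5 in CTRL. Within the YTHDF family, YTHDF1 gave 52.8 and 53.8% of the summed TPM in OE-WT and 59.2 and 54.8% in CTRL, and YTHDF2 gave 39.5 and 38.5% against 34.2 and 37.8%. Among the erasers, ALKBH3 gave 41.6 and 38.7% in OE-WT and 47.9 and 47.4% in CTRL. The order of ALKBH1 and ALKBH3 depended on the length used: with merged exons ALKBH1 had the larger share in OE-WT and ALKBH3 in CTRL, but with the longest transcript or MANE Select ALKBH3 had the larger share in all 4 libraries. With the longest transcript ALKBH3 gave 47.5 and 44.2% in OE-WT and ALKBH1 gave 41.0 and 41.8%.

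**Figure D4:**
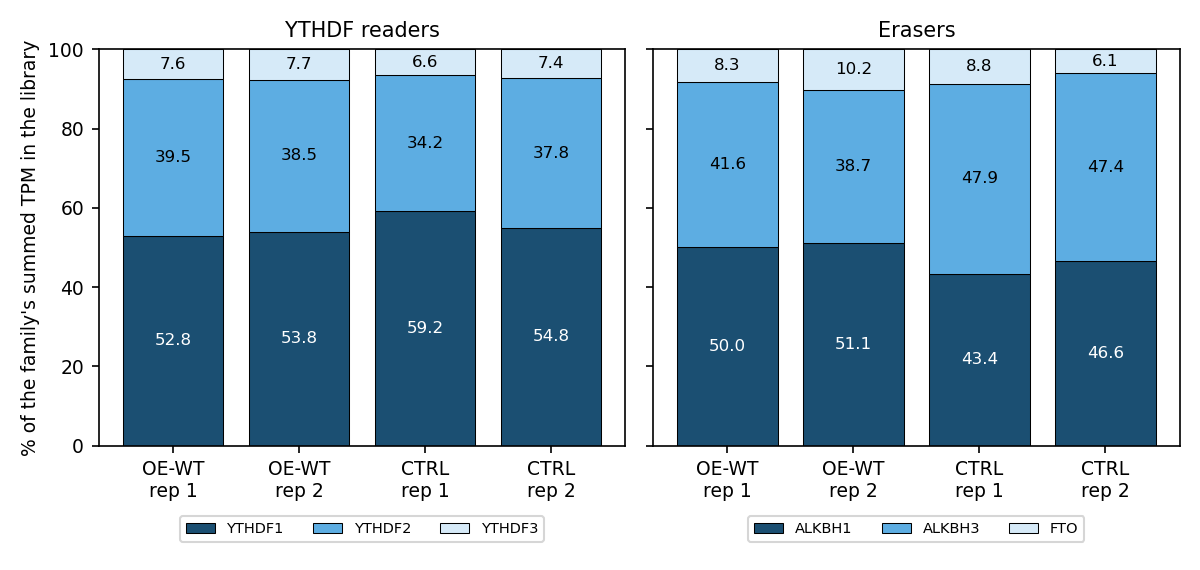
Share of each gene in the summed TPM of the YTHDF readers (left) and of the erasers (right), in percent, for each of the 4 libraries. YTHDF1 makes up 52.8 to 59.2% of its family in every library, and ALKBH3 makes up 41.6 and 38.7% of the erasers in OE-WT and 47.9 and 47.4% in CTRL.

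The 2 mitochondrial RNAs compared, which these writers are known to modify, were both higher in OE-WT. Other mitochondrial RNAs were not compared here, so a rise of these 2 cannot be told from a general one. The RNA was poly(A)-selected from cleared lysate, so these counts also depend on that selection and on what was spun down. MT-RNR2, the large ribosomal RNA that TRMT61B methylates, stood at 36530 and 30234 CPM in OE-WT and at 21691 and 24329 CPM in CTRL (log2 fold change 0.54, SE 0.10, edgeR adjusted p = 0.00039). MT-ND5, an mRNA of complex I reported to be methylated by TRMT10C, stood at 19138 and 15225 CPM in OE-WT and at 10898 and 13106 CPM in CTRL (log2 fold change 0.52, SE 0.10, adjusted p = 0.00098; adjusted p = 0.097 by DESeq2). Both OE-WT libraries lay above both CTRL libraries for each RNA. For both RNAs OE-WT replicate 1 was the highest library and CTRL replicate 1 the lowest. That order was found for TRMT10C and also for ALKBH1, YTHDF2 and YTHDC1, so it was not particular to TRMT10C. Whether the levels of these RNAs and of TRMT10C are linked was not tested, and counts give no measure of methylation.

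Of the other genes with a role in m1A, none of 6 passed the test. PRORP, the nuclease subunit of mitochondrial RNase P, which works with TRMT10C and HSD17B10, was at 43 and 30 counts for OE-WT against 24 and 29 for CTRL; the groups did not overlap, and its log2 fold change was 0.78 (SE 0.29, edgeR adjusted p = 0.056). YTHDC2, a YTH protein with helicase domains, gave 0.61 (SE 0.27, adjusted p = 0.116). RRP8, the nucleolar writer of m1A in large ribosomal RNA, gave 0.17 (SE 0.11, adjusted p = 0.289). ALKBH7, a mitochondrial AlkB protein, gave -0.26 (SE 0.10, adjusted p = 0.080). The call on 3 of these 4 changed with the libraries or settings. PRORP ranged from 0.49 without OE-WT replicate 1 to 1.03 without OE-WT replicate 2, where it passed (adjusted p = 0.0198), as it did among genes with at least 10 counts everywhere (adjusted p = 0.047). YTHDC2 was at 0.29 without CTRL replicate 1 and passed at 0.99 without CTRL replicate 2 (adjusted p = 0.030). ALKBH7 was at -0.40 without OE-WT replicate 2, -0.14 without OE-WT replicate 1 and -0.083 with the GC trend removed. It passed at -0.35 with library size alone (adjusted p = 0.0151), where the median over all tested genes was -0.082.

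Over 69 related genes in 5 lists, 68 were tested. Of these, 13 rose and 0 fell (adjusted p below 0.05), beside 1334 (9.44%) higher and 1642 (11.6%) lower among all 14133 tested genes. The median log2 fold change was 0.17, beside 0.010 over all tested genes. The lists were chosen with earlier results of these data known, so these counts describe the lists and do not test them. Of 21 tested genes of the m6A machinery 4 were higher, led by IGF2BP3, an mRNA-stabilising reader (log2 fold change 0.59, SE 0.17, adjusted p = 0.015), and HNRNPA2B1, a nuclear RNA-binding protein (0.43, SE 0.08, adjusted p = 0.00052). Of 24 genes of mitochondrial RNA synthesis and processing 4 were higher, led by LRPPRC, which stabilises mitochondrial mRNAs (0.48, SE 0.10, adjusted p = 0.0016), and PNPT1, a mitochondrial exoribonuclease (0.45, SE 0.15, adjusted p = 0.038). Of 15 partners of the YTH readers 5 were higher, led by RIDA, which links YTHDF2 to an endoribonuclease (0.59, SE 0.15, adjusted p = 0.008), and CNOT6, a deadenylase subunit (0.50, SE 0.14, adjusted p = 0.013). None of 6 other AlkB family genes passed the test.

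These counts turned on the libraries and the scaling. The number of related genes called was between 5 and 18 when single libraries were left out, being 5 without CTRL replicate 1 and 6 without OE-WT replicate 1. It was 3 by DESeq2, beside 3.67% higher and 6.04% lower over all tested genes. By DESeq2 IGF2BP3, RIDA, CNOT6 and PNPT1 did not pass (adjusted p = 0.111, 0.063, 0.090 and 0.163). The log2 fold change of IGF2BP3 was 0.40 without CTRL replicate 1. That of RIDA was 0.45 without CTRL replicate 2, and that of CNOT6 was 0.32 without OE-WT replicate 1. With scaling by library size alone 5 were higher and 3 lower, beside 5.19% higher and 17.3% lower over all tested genes. With the GC trend removed 10 were higher and 0 lower, beside 10.4% and 11.3% over all tested genes. The median log2 fold change was then 0.11, beside 0.0098 over all tested genes. HNRNPA2B1 and LRPPRC passed under every one of the 11 alternatives, whereas PNPT1 passed under 5.

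Neighbouring and overlapping genes were examined because counts can be shared between them. ALKBH1 starts 80 bases from SLIRP, a mitochondrial RNA-binding protein gene on the other strand, which had a log2 fold change of 0.11 (adjusted p = 0.334). ALKBH3 starts 105 bases from the noncoding gene ENSG00000246250, with counts of 52 and 44 for OE-WT and of 75 and 84 for CTRL. Like ALKBH3, it was lower in both OE-WT libraries, and it did not pass the test either (log2 fold change -0.40, adjusted p = 0.176). FTO starts 297 bases from RPGRIP1L (0.26, adjusted p = 0.535) and YTHDF3 starts 156 bases from YTHDF3-DT (-0.40, adjusted p = 0.387).

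Exons of TRMT61B overlap those of SPDYA on the other strand over 471 bases, and SPDYA had 17 to 37 counts in a library (log2 fold change -0.51, adjusted p = 0.259). The libraries were strand-specific, but the strand setting of the counting is not given in the sources used here. Exon overlaps of HSD17B10, ALKBH3 and FTO were with ENSG00000233250, SEC14L1P1 and ENSG00000280454, which had at most 2 counts in a library. The processed pseudogenes FTOP1, YTHDF1P1, YTHDF2P1 and YTHDF3P1 had at most 1 count each. Within 500 kb of the 10 genes 89 other genes were tested, of which 7 were higher and 17 lower; 27.0% were called, beside 21.1% of all tested genes (9.44% higher and 11.6% lower), and the difference was not tested. Around YTHDF1 there were 20, none higher and 8 lower, with a median log2 fold change of -0.27 beside -0.12 for YTHDF1 itself. Around ALKBH3 there were 7, none higher and 2 lower, with a median of -0.33 beside -0.34 for ALKBH3. The neighbours' median had the other sign from the gene for TRMT61B (0.17 beside -0.027) and HSD17B10 (-0.16 beside 0.17). So it had for ALKBH1 (-0.030 beside 0.066) and YTHDF3 (-0.017 beside 0.11). It had the same sign for TRMT10C (0.057 beside 0.65), FTO (0.082 beside 0.22), YTHDF2 (0.011 beside 0.093) and YTHDC1 (0.22 beside 0.38).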

How the data were processed

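RNA sequencing of 4 DLD1 libraries was analysed, each sequenced on 2 lanes and deposited as 1 column. The deposited values are raw counts per gene, which the authors made from trimmed reads (Cutadapt) by alignment with HISAT2 to GRCh38; the study's methods name HTSeq and edgeR, whereas the submitters' processing notes name HISAT2 2.2.1, featureCounts 2.0.0 and DESeq2 1.34.0. The annotation release used for counting is not given in the sources used here. The methods also describe ribosomal RNA removal and more replicates, whereas the labels describe poly(A) selection and 2 replicates per group; the labels were followed. Catalytic mutants were not analysed here.

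Identifiers were matched to GENCODE release 44 (57532 of 58302, at least 99.93% of counts). OE-WT was compared with CTRL in edgeR 4.0.16 (R 4.3.3) with the default filter by group at a minimum count of 10, TMM scaling, no replicate block and the quasi-likelihood test; p-values were adjusted over 14133 genes (Benjamini-Hochberg). CPM are TMM-scaled, TPM use merged exon lengths, and counting intervals are exact Poisson at 95%. Alternatives were RLE factors, library size alone, DESeq2 1.42.0, 2 other filters, a replicate block, removal of a lowess trend on GC content (span 0.3), leaving out each library, and other lengths. The scripts' statistics were tested on simulated data. The genes, related lists and tests were chosen with earlier results of these data known. Genes named are the 10, TRMT6, TRMT61A, PRORP, RRP8, ALKBH7, YTHDC2, MT-RNR2, MT-ND5, up to 2 largest called rises and falls per related list, and genes that overlap the exons of the 10 or start within 1 kb of them on the other strand. Markers and pseudogenes named were checks.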

Additional observations from a re-analysis of the deposited data

How the results depend on the processing

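Of the 110 fold changes of the 10 genes under the 11 alternatives, 92 kept their direction and their side of the threshold, 4 lost and 5 gained a call, and 9 changed sign; the cause was not tested. The number of the 10 genes called, 1 with the main settings, was 2 with scaling by library size alone (TRMT10C and ALKBH3), 2 with the GC trend removed (TRMT10C and HSD17B10), 0 by DESeq2, 0 with every gene of at least 1 count, and between 0 and 2 when single libraries were left out: 0 without OE-WT replicate 1, 1 (FTO) without CTRL replicate 1, and 2 (TRMT10C and YTHDC1) without either of the others. By DESeq2, 1373 genes were called over the whole table and 288 passed the study's thresholds, against 2976 and 445 with the main settings. The latter count was 738 with every gene of at least 1 count and 216 when each library had to have at least 10. Leaving out single libraries gave 1903 (without CTRL replicate 1) to 2852 genes called, and 429 to 570 past the study's thresholds. Related genes called, 13 with the main settings, numbered 8 with library size alone, 3 by DESeq2, 6 with every gene of at least 1 count and 5 to 18 with single libraries left out.

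Signs changed only for genes near 0: ALKBH1 (-0.026 with library size alone, -0.014 with the GC trend removed, -0.019 to 0.15 with single libraries left out), YTHDF3 (-0.0060 with the GC trend removed, -0.016 to 0.24 with single libraries left out), YTHDF2 (-0.024 to 0.22) and TRMT61B (-0.22 to 0.14). The mean share of FTO among the erasers in CTRL was 7.41% with merged exons, 10.1% with the longest transcript and 10.0% with MANE Select, and that of YTHDF1 in its family was 57.0, 50.6 and 49.9%.

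A replicate block left 2658 genes called, 1 of the 10 genes and 11 related genes. The deviations of libraries that share a number correlated at -0.085, so the numbers were not taken as pairs. Fits without a library leave 1 library in a group, assumed to vary like the others. With 2 libraries a group, the 95% intervals of the 10 genes reached between 0.14 and 0.42 to either side of the log2 fold change, widest for TRMT10C.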
